A study of Arabidopsis thaliana with 12 samples.

Results

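AT5G05550, RBL6 (AT1G12750), AT1G10095 and AT2G40630 are 4 Arabidopsis genes outside the serine/arginine-rich (SR) family picked for large differences in splicing between germinated seeds of wild type and of sr34a-1, a mutant in the SR protein gene SR34A. They are 4 of the 33602 genes listed in the deposited tables. They were chosen from the measured values: the AT5G05550 exon and the RBL6 acceptor sites stood out between the genotypes without hormone, and the AT1G10095 exon and the AT2G40630 acceptor site between the genotypes with abscisic acid (ABA). Differences in the comparison that named a gene are therefore given as descriptions, with no test. In tests the genotypes were compared only between the libraries of the other treatment, and that choice too was made with results from all libraries known. The spread in these tests was estimated from all 12 libraries, so the libraries that named a gene entered it.

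The seeds were wild type (WT) Col-0 or the mutant sr34a-1. All were stratified, grown for 44 h on MS medium in continuous white light at 21 °C, and moved for 2 h to MS medium without hormone (mock) or with 0.5 µM ABA, a plant hormone that holds back seedling growth. Each of the 4 combinations had 3 libraries of polyadenylated RNA from whole seedlings. The labels give neither the kind of mutation in sr34a-1 nor a second mutant line, so the mutant stands for a single allele.

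SR proteins bind RNA in exons and introns and steer the spliceosome towards or away from nearby splice sites. A gene can then give several transcripts, by including or skipping an exon (cassette exon), by joining to another acceptor (the 3′ end of an intron) or donor (its 5′ end), or by keeping an intron. Where a change of splice site shifts the reading frame, translation usually meets an early stop codon, and a stop codon followed by an exon junction is a common mark for nonsense-mediated decay in plants. The share of transcripts that use an event is its percent spliced in (PSI), the percent of informative reads that include the exon, use the site or keep the intron.

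RefSeq describes AT5G05550 as a sequence-specific DNA-binding transcription factor, RBL6 as a RHOMBOID-like protein, AT1G10095 as a member of the protein prenylyltransferase superfamily and AT2G40630 as an uncharacterized conserved protein. Rhomboids are membrane proteins, many of which cut other proteins within the membrane. Protein prenyltransferases attach lipid groups to other proteins.

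The sequences at the 4 events are shown first because they set what each splicing choice does to the message. All are from the RefSeq TAIR10.1 genome and read 5′ to 3′ along the transcript. AT5G05550 lies on the minus strand of chromosome 5 (chr5:1639000-1640960). Its leading event is a cassette exon of 98 bases at chr5:1639454-1639551, which holds the end of the coding sequence and part of the 3′ untranslated region. The ends of the coding sequence in its 3 RefSeq forms follow, with the last 12 bases of the shared exon in lower case and the bases after it, up to and including the stop codon, in capitals.
Exon included: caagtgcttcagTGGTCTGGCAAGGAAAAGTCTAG
Exon skipped: caagtgcttcagGTAAGCAATTGTAG
Intron before the exon retained: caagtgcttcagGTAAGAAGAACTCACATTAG
The coding sequences share 727 bases and differ only in these ends, so that the forms encode 249, 246 and 248 codons. The stop codon lies 75 bases before the last exon junction in the included form and 350 bases before it in the retained form. The skipped form has its stop codon in the last exon, with 0 junctions after it.

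RBL6 lies on the minus strand of chromosome 1 (chr1:4344943-4348390). Its leading event is the choice between a pair of acceptors of the same intron, at position 4347790 (the upstream acceptor) and at position 4347537 (the downstream acceptor). The 30 bases around each are shown with the first 6 bases of the exon in capitals.
Upstream acceptor, chr1:4347785-4347814: gcctctttctgttttggttcctagAACCAG
Downstream acceptor, chr1:4347532-4347561: acttgcatacgccttgcactaaagTTTCTG
Both lie in the 5′ untranslated region and leave the 307 codons of the longest RefSeq coding sequence as they are. The downstream acceptor gives 378 bases before the start codon with 9 ATG triplets. The upstream acceptor adds 253 bases, for 631 bases and 14 ATG triplets, and retention of the whole intron gives 1081 bases and 25 ATG triplets.

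AT1G10095 also lies on the minus strand of chromosome 1 (chr1:3296516-3300516). Its cassette exon is shown in capitals with 20 intron bases on each side, at chr1:3299340-3299470.
AT1G10095 exon: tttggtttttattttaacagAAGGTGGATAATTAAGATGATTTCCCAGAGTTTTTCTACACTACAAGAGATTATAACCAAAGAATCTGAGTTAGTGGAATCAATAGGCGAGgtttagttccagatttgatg
The RefSeq exon has 91 bases (chr1:3299360-3299450), whereas the deposited coordinates give 86 bases with a donor 5 bases earlier, at 3299365. In the deposited donor event the RefSeq donor at 3299360 had 77.8% to 100% of the reads in the 12 libraries and the 86-base donor had 0 in every library. The other reads, 0% to 22.22%, used a farther donor at 3299304, and the reading frame of that longer exon was not examined. That event had as few as 8 reads in a library, where 0 reads allow a use of up to 37.5%. The RefSeq form with the exon encodes 420 codons and ends in the last exon. Without the exon, a form that is not among the 4 RefSeq transcripts, the frame shifts and a stop codon comes after 181 codons, with 5 exon junctions after it.

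AT2G40630 lies on the plus strand of chromosome 2 (chr2:16957881-16961591). Its leading event is a choice between acceptors at position 16960106 (upstream) and position 16960158 (downstream). The 52 bases between them are in capitals, with 20 bases before and 12 after, at chr2:16960086-16960169.
AT2G40630 acceptors: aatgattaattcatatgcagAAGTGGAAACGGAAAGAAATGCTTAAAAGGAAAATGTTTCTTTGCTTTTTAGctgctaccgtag
The downstream acceptor keeps the reading frame of 535 codons. The upstream acceptor, which is not in the 3 RefSeq transcripts, shifts the frame and meets a stop codon after 372 codons, with 3 exon junctions after it. Retention of the same intron gives a stop codon after 389 codons, also with 3 junctions after it.

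**Figure D1:**
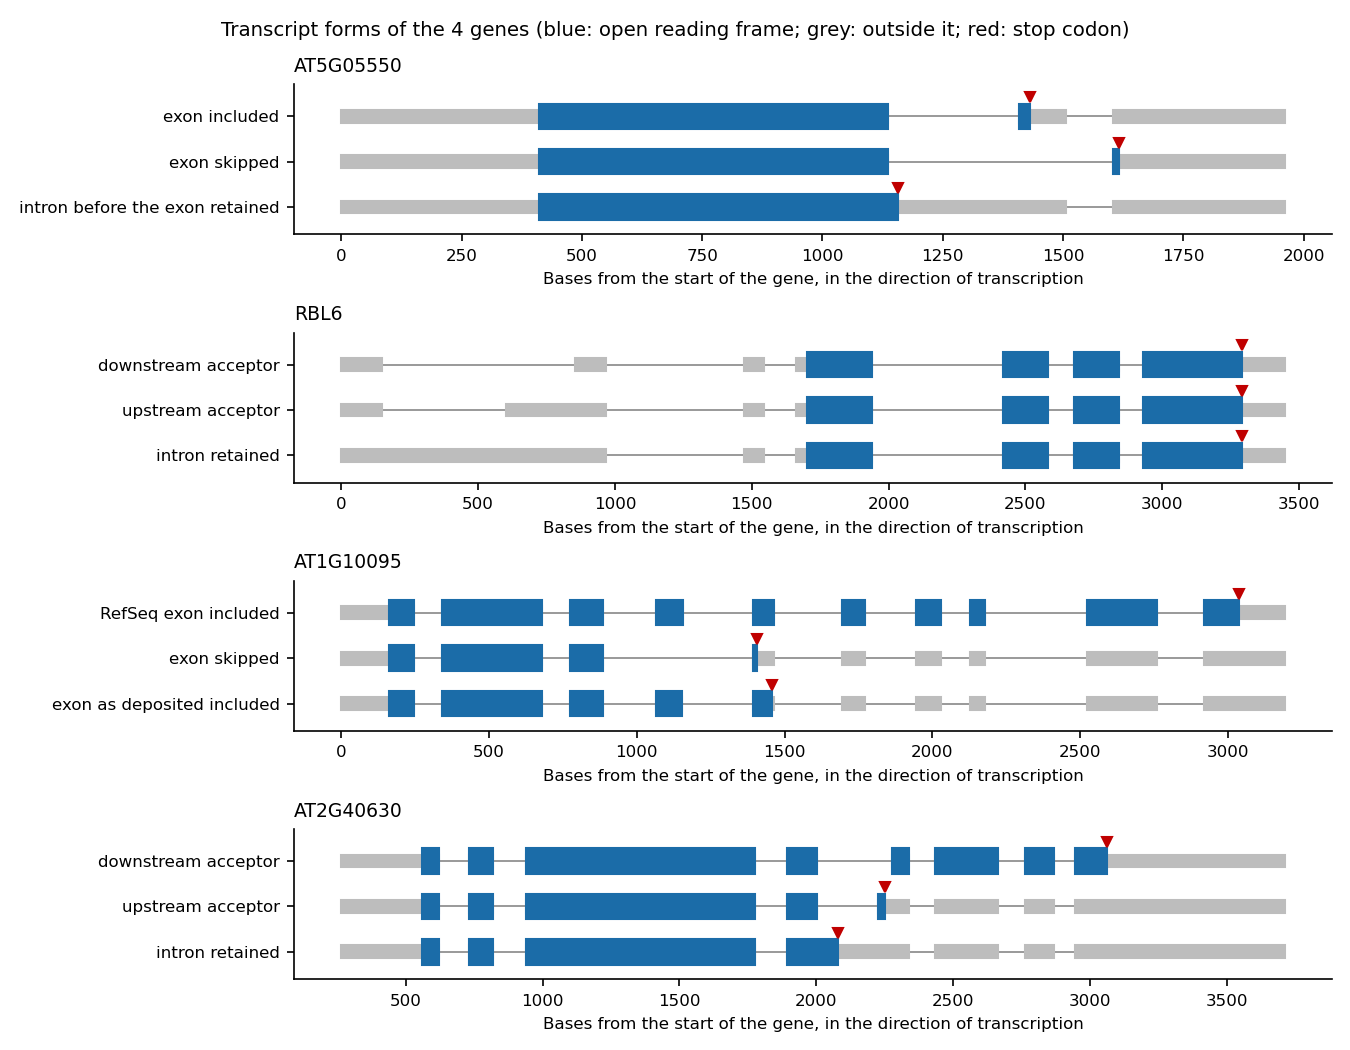
Transcript forms of the 4 genes, drawn to scale in bases from the start of the gene in the direction of transcription. Blue boxes are the open reading frame, grey boxes lie outside it, lines are introns and red triangles are stop codons. In AT5G05550 the forms differ in the last codons and in the 3′ untranslated region, and in RBL6 only before the start codon. In AT1G10095 and AT2G40630 the skipped exon, the upstream acceptor and the retained intron bring the stop codon forward. The AT1G10095 form with the 86-base exon of the deposited coordinates, which is not in RefSeq, has its stop codon after 227 codons.

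The share of C and T in the 20 bases before an acceptor, a rough measure of the polypyrimidine tract, had a median of 60% and quartiles of 50% and 65.0% over 115029 deposited introns. It was 65.0% before the AT5G05550 exon and 65.0% before the AT1G10095 exon. In RBL6 it was 75% at the upstream and 50% at the downstream acceptor, and in AT2G40630 it was 45.0% at the upstream and 70.0% at the downstream acceptor. The acceptor that was used more in sr34a-1 was thus the one with the lower share in RBL6 and the one with the higher share in AT2G40630.

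Total counts ranged from 61128187 to 83268758 per library. SR34A was at 78.4 ± 2.83 cRPKM (reads scaled to gene length and library depth, SD, n = 3) in WT mock and 73.4 ± 2.41 in WT ABA, against 10.8 ± 0.556 and 10.1 ± 1.02 in sr34a-1, as its labels say. No marker of germinated seeds or of the ABA response was listed at 0. The summed cRPKM of 3 storage and oil body genes (CRA1, CRC, OLEO1) was 58.27 to 88.58 in WT and 136.5 to 189.0 in sr34a-1 under mock, and 152.6 to 214.4 in WT and 326.6 to 496.4 in sr34a-1 with ABA, and all 3 were higher in each sr34a-1 library than in every WT library of the same treatment. The same held for 2 of 2 reserve-use genes (ICL, MLS), for 3 of 3 ABA response genes (RAB18, EM6, RD29A) and for the expansin EXPA2, whereas RBCS1A and CAB1, genes of photosynthesis, were lower. Of all tested genes, 34.5% did not overlap between the genotypes under mock and 36.8% with ABA. The genotypes thus differed in markers of seedling stage as well as in splicing, and the part of that difference in the results below was not tested.

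Of 101 events listed for the 4 genes, 94 had at least 10 reads in each library. The event just inside this limit had 10 reads in its poorest library and the event just outside it had 8, and both are alternative acceptors, of AT1G10095 and AT5G05550. Of the 94, 10 differed between the genotypes by at least 10 PSI points in either treatment, 4 by 5 to 10 points and 80 by less than 5 points. The 10 were the leading events, the other acceptor of RBL6 and of AT2G40630, the intron that holds the alternative acceptors in each of these genes, the intron before the AT5G05550 exon and an intron of AT1G10095. By position among 27995 tested events, the AT5G05550 exon had the 4th and the RBL6 upstream acceptor the 2nd largest genotype difference under mock, and the AT1G10095 exon the 15th and the AT2G40630 downstream acceptor the 18th with ABA. These ranks describe the choice of the genes.

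In AT5G05550, WT seeds included the cassette exon in close to equal parts with skipping, and sr34a-1 seeds mostly skipped it. Under mock, the comparison that named the gene, PSI was 43.32, 53.63 and 55.24 in WT, against 11.37, 5.47 and 10.62 in sr34a-1. Every sr34a-1 library was below every WT library, with means of 50.7 ± 6.47 and 9.15 ± 3.21 (SD, n = 3). With ABA, PSI was 45.47, 40.18 and 41.06 in WT, against 17.15, 8.91 and 10.75 in sr34a-1, again with no overlap and with means of 42.2 ± 2.83 and 12.3 ± 4.33. Such a lack of overlap was seen in 14.1% of all tested events under mock and in 13.3% with ABA. In the ABA libraries, which did not name the gene, the ratio of inclusion over exclusion reads differed by -2.43 on the log2 scale (SE 0.29), with an adjusted p of 3.92e-06 in limma's moderated test with Benjamini-Hochberg adjustment over all tested events. In that comparison, 0.793% of the tested events passed. Since whole seedlings were sequenced, a change of form within cells and a change in the mix of cells cannot be told apart, and neither can fewer cells of a type and less RNA per cell. The call was lost, at an adjusted p of 0.0914, when limma's variance was not allowed to follow the sampling variance of the events, which depends on read depth and PSI.

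The intron just before that exon (chr5:1639552-1639823) was kept less often in sr34a-1 as well. Its PSI was 26.97, 37.89 and 37.73 in WT mock and 21.29, 19.39 and 18.38 in sr34a-1 mock. It was 28.64, 29.80 and 30.98 in WT ABA and 15.25, 15.92 and 14.83 in sr34a-1 ABA. The genotypes did not overlap in either treatment, as in 14.1% of all tested events under mock and 13.3% with ABA. With ABA the log2 ratio changed by -1.22 (SE 0.20, limma, adjusted p = 0.000745), and by the same measure without the variance trend the adjusted p was 0.208. Reads with this intron spliced out numbered 319.4, 356.2 and 332.7 in sr34a-1 ABA. Reads that include the exon numbered only 56.25, 29.76 and 33.0 there, and reads that skip it 271.8, 304.2 and 274.0. The intron value thus shares reads with the exon and is not independent of it, and a separate change in retention was not tested. The intron after the exon was kept in 3.18% to 9.62% of reads in all libraries, and the genotype difference with ABA was -0.38 (SE 0.38, limma, adjusted p = 0.785).

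Read numbers show which form moved. Reads that include the AT5G05550 exon were, per 1000000 gene counts, 2.35 ± 0.205 in WT mock and 0.346 ± 0.130 in sr34a-1 mock, and reads that skip it were 2.31 ± 0.48 and 3.40 ± 0.147 (SD, n = 3). With ABA the inclusion reads were 2.02 ± 0.145 and 0.546 ± 0.235 and the skipping reads 2.77 ± 0.253 and 3.83 ± 0.0934. The sr34a-1 mean was thus 0.147 times the WT mean for inclusion reads and 1.47 times for skipping reads under mock, and 0.270 and 1.38 times with ABA. The form that was more abundant in sr34a-1 is the one with its stop codon in the last exon. The mutant's PSI with ABA overlapped its PSI under mock, and in WT 1 of the 3 ABA values lay within the range under mock. The change of the genotype difference between treatments is given here without a test, because the mock libraries named the event. Over the whole table the interaction of genotype and treatment passed for 0 of 27995 events (limma, with 1328 at an unadjusted p under 0.05).

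**Figure D2:**
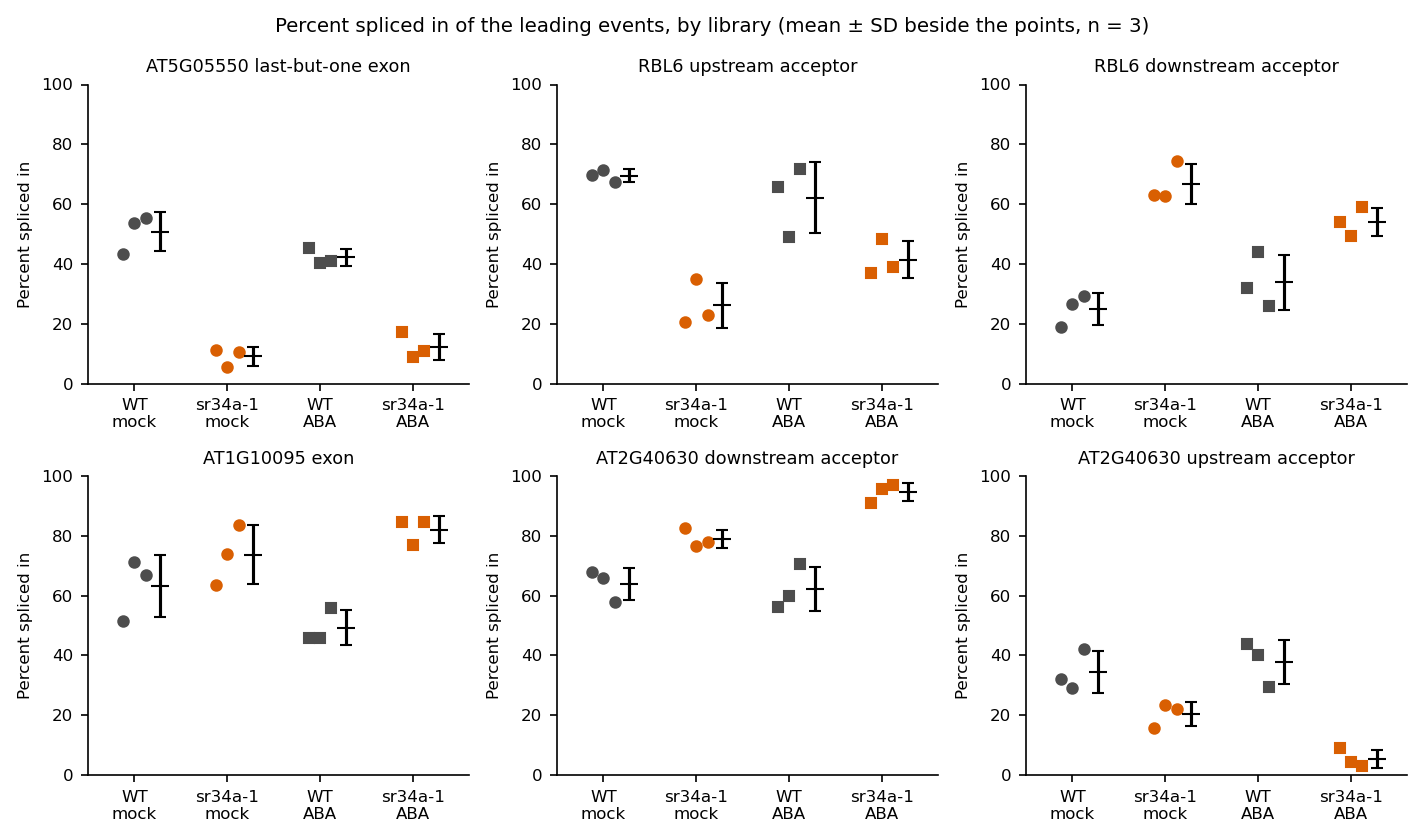
PSI in percent of the leading events and their partner acceptors, with 1 point per library (circles mock, squares ABA, grey WT, orange sr34a-1) and the mean ± SD (n = 3) beside them. The AT5G05550 exon lies between 40.18 and 55.24 in the 6 WT libraries and between 5.47 and 17.15 in the 6 sr34a-1 libraries.

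In RBL6 the genotypes mostly used different acceptors under mock. In that treatment, which named the gene, the upstream acceptor had a PSI of 69.84, 71.43 and 67.31 in WT, against 20.47, 34.80 and 23.01 in sr34a-1. The downstream acceptor had 18.85, 26.53 and 29.25 in WT, against 62.96, 62.78 and 74.51 in sr34a-1. The libraries of the genotypes did not overlap at either site, as in 14.1% of all tested events under mock. Since the sites share their reads, the second set of values is not independent of the first. The other sites of the event were little used, with 0% to 16.6% at position 4347528 and 0% to 3.77% at position 4347784.

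With ABA the direction was the same, with means 20.6 points lower at the upstream acceptor in sr34a-1 (difference -20.6) against -43.4 under mock. The change between treatments is again given without a test, and the interaction passed for 0 of 27995 events (limma). The upstream acceptor had 65.77, 48.87 and 71.65 in WT, against 37.04, 48.34 and 38.99 in sr34a-1, so that WT replicate 2 lay just above sr34a-1 replicate 2. The downstream acceptor had 31.95, 43.82 and 25.78 in WT, against 53.97, 49.31 and 58.91 in sr34a-1. In these libraries the log2 ratio differed by -1.21 (SE 0.46, limma, adjusted p = 0.285) at the upstream acceptor and by 1.19 (SE 0.45, limma, adjusted p = 0.278) at the downstream acceptor. Neither passed the threshold after adjustment over all events (unadjusted p from limma = 0.0134 and 0.0128). The groups did not overlap, as in 13.3% of all tested events with ABA.

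The depth was lower than in AT5G05550, with 27 to 57 reads for the choice of acceptor in each library against 268 to 355 reads for the AT5G05550 exon. The Wilson 95% interval of a single library's PSI was 23.8 to 35.3 points wide at the upstream acceptor and 5.34 to 11.1 points wide at the AT5G05550 exon, counting error only. The intron that holds both acceptors was retained in 52.73%, 71.43% and 46.48% of reads in WT mock and in 33.33%, 44.83% and 36.96% in sr34a-1 mock. With ABA it was retained in 46.15%, 60.00% and 53.49% in WT and in 38.46%, 25% and 39.53% in sr34a-1, with a difference in log2 ratio of -1.11 (SE 0.44, limma, adjusted p = 0.311). The genotypes did not overlap in either treatment, as in 14.1% of all tested events under mock and 13.3% with ABA. In each treatment sr34a-1 thus had a higher mean PSI at the acceptor that leaves 378 bases before the start codon, and lower means for the upstream acceptor and the retained intron, which both leave more. The scored intron ends at the downstream acceptor, so transcripts spliced at the upstream acceptor also cover its last bases. Its value is therefore not independent of the acceptor choice, and a separate change in retention was not tested.

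In AT1G10095 the exon, which keeps the reading frame when the RefSeq donor is used, had a higher PSI in sr34a-1 with ABA, the comparison that named the gene. PSI was 45.89, 45.83 and 55.96 in WT ABA and 84.66, 76.76 and 84.48 in sr34a-1 ABA, with means of 49.2 ± 5.83 and 82.0 ± 4.51 (SD, n = 3). These groups did not overlap, as in 13.3% of all tested events with ABA. Under mock, PSI was 51.55, 71.15 and 66.86 in WT, against 63.62, 73.91 and 83.61 in sr34a-1, and the genotypes overlapped. The log2 ratio under mock differed by 0.75 (SE 0.38, limma, adjusted p = 0.669, unadjusted p from limma = 0.0573), which did not pass. It was 0.353 without replicate 3 of sr34a-1 mock and 0.395 without replicate 1 of WT mock. Under mock 0.529% of the tested events passed.

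The WT mean for this exon was 63.2 ± 10.3 under mock and 49.2 ± 5.83 with ABA, whereas that of sr34a-1 was 73.7 ± 10 and 82.0 ± 4.51. In each genotype the ABA values overlapped the mock values, and the change is given without a test because the ABA libraries named the event. Reads that skip the exon were 0.365 ± 0.136 per 1000000 gene counts in WT and 0.375 ± 0.104 in sr34a-1 under mock, and 0.638 ± 0.0373 in WT and 0.291 ± 0.0438 in sr34a-1 with ABA. Reads that include it were 0.611 ± 0.0604, 1.09 ± 0.263, 0.636 ± 0.195 and 1.35 ± 0.198 in the same order. The skipped form, with its early stop codon, was thus highest in WT ABA, and the mean of the included form in sr34a-1 was 1.79 times that of WT under mock and 2.12 times with ABA.

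The other AT1G10095 event with a difference of at least 10 points was intron 6 of the longest RefSeq coding transcript (chr1:3298573-3298744). It was retained in 25%, 18.18% and 8.11% of reads in WT mock and in 8.70%, 0.00% and 9.80% in sr34a-1 mock, and the groups overlapped. With at least 13 reads per library, its genotype difference under mock was -1.68 (SE 0.89, limma, adjusted p = 0.702).

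In AT2G40630 the downstream acceptor, which keeps the frame, had a higher PSI in sr34a-1 in both treatments. With ABA, which named the gene, its PSI was 56.25, 60.00 and 70.59 in WT, against 91.11, 95.74 and 97.14 in sr34a-1, with no overlap, as in 13.3% of all tested events with ABA. Under mock it was 67.92, 65.80 and 57.75 in WT, against 82.46, 76.74 and 78.00 in sr34a-1. The genotypes did not overlap there either, as in 14.1% of all tested events under mock. The log2 ratio under mock differed by 1.07 (SE 0.53, limma, adjusted p = 0.646, unadjusted p from limma = 0.0490), which did not pass after adjustment.

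The upstream acceptor took nearly all other reads, with 32.08%, 29.10% and 42.25% in WT mock and 15.79%, 23.26% and 22.00% in sr34a-1 mock. It had 43.75%, 40% and 29.41% in WT ABA and only 8.89%, 4.26% and 2.86% in sr34a-1 ABA. The remaining 7 acceptors of the event were at 0% to 2.53% in every library, and 0 of 34 reads in the shallowest library allows a use of up to 8.82%. Reads for the other acceptors were 0.243 ± 0.0716 per 1000000 gene counts in WT ABA and 0.0368 ± 0.0183 in sr34a-1 ABA, a mean 0.151 times that of WT, and behind the mutant value stood 4, 2 and 2 reads.

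The AT2G40630 intron that holds these acceptors was retained in 32.80%, 34.57% and 47.19% of reads in WT mock and 29.93%, 17.37% and 26.56% in sr34a-1 mock. With ABA it was retained in 37.78%, 41.38% and 37.21% in WT, against 18.00%, 17.36% and 18.82% in sr34a-1. The genotypes did not overlap in either treatment, as in 14.1% of all tested events under mock and 13.3% with ABA. Under mock the difference was -0.93 (SE 0.36, limma, adjusted p = 0.442, unadjusted p from limma = 0.0141). Both forms with an early stop codon, the upstream acceptor and the retained intron, thus had a lower mean share in sr34a-1 than in WT in each treatment. The scored intron ends at the downstream acceptor, so transcripts spliced at the upstream acceptor also cover its last bases. The intron value is therefore not independent of the acceptor choice, and a separate change in retention was not tested.

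**Figure D3:**
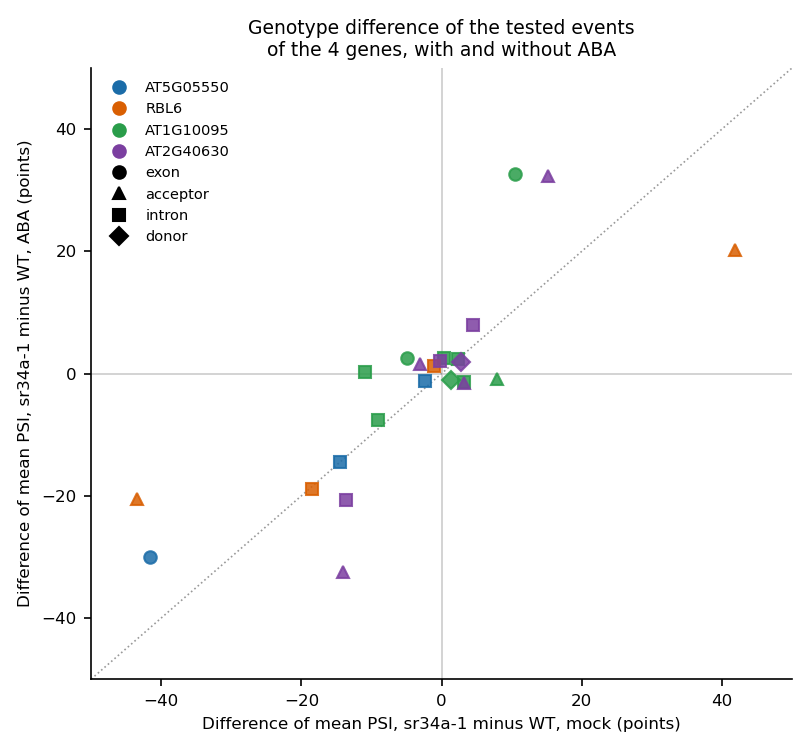
Difference of mean PSI between sr34a-1 and WT for the 24 tested events of the 4 genes, under mock (horizontal axis, PSI points) and with ABA (vertical axis, PSI points), with colours for genes and shapes for event types. The dotted line marks equal differences. The AT5G05550 exon is at -41.6 and -30.0, the RBL6 upstream acceptor at -43.4 and -20.6, the AT1G10095 exon at 10.5 and 32.7 and the AT2G40630 downstream acceptor at 15.2 and 32.4, while most other events lie near 0.

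Counted over the treatment that did not name each gene, 2 of 24 tested events passed, both in AT5G05550. By leading events, 1 of 4 passed. Over all tested events, 0.529% passed under mock and 0.793% with ABA. The genotypes did not overlap in 9 of the 24 events, namely 2 of 3 in AT5G05550, 3 of 4 in RBL6, 1 of 9 in AT1G10095 and 3 of 8 in AT2G40630. Over all tested events the genotypes did not overlap in 14.1% under mock and in 13.3% with ABA. The events of a gene share reads, so these counts are not counts of independent events.

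**Figure D4:**
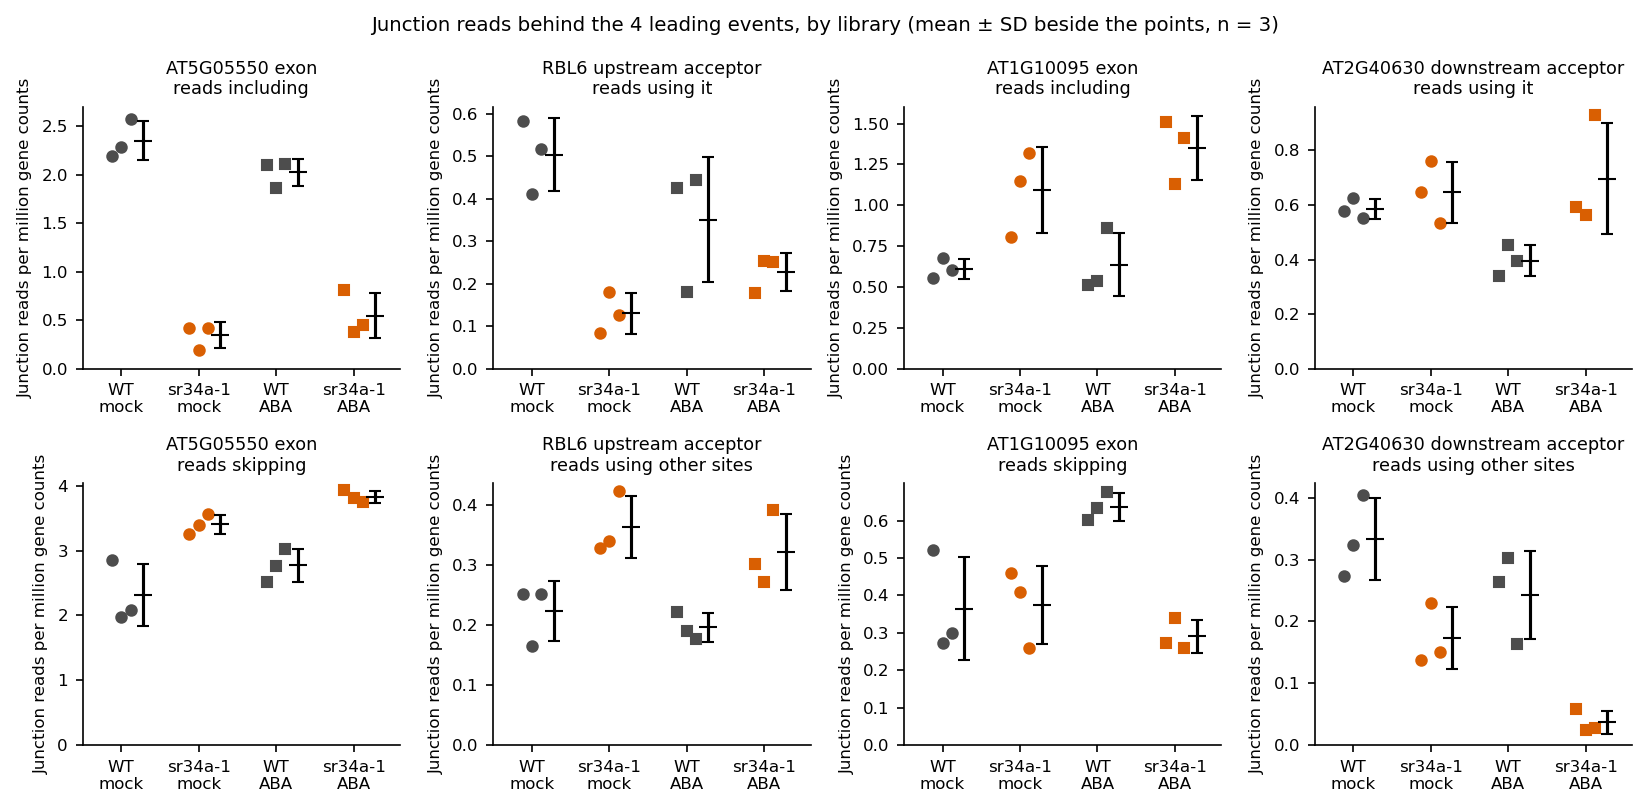
Junction reads per 1000000 gene counts behind the 4 leading events, with 1 point per library and the mean ± SD (n = 3) beside them. The upper row holds reads that include the exon or use the acceptor and the lower row reads that skip it or use other sites. For AT5G05550 the inclusion reads are lower in sr34a-1, with means of 0.346 and 0.546, than in WT, with 2.35 and 2.02.

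The total RNA of each gene was measured beside its forms. AT1G10095 was the least expressed, at a mean of 2.47 to 3.65 cRPKM over the 4 groups, RBL6 and AT2G40630 were at 5.11 to 6.50, and AT5G05550 was at 13.2 to 15.5. The median gene with a value above 0 was at 7.75 cRPKM in WT mock. AT5G05550 lay above the other genes in every library and AT1G10095 below them, whereas the values of RBL6 and AT2G40630 overlapped.

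AT1G10095 was higher in sr34a-1. Under mock it was at 2.29, 2.53 and 2.59 cRPKM in WT, against 3.17, 3.45 and 3.57 in sr34a-1, with no overlap, as in 34.5% of tested genes. In edgeR's quasi-likelihood test on the counts this was a log2 fold change of 0.46 (SE 0.10), a 1.37-fold increase with an adjusted p of 0.00811 (Benjamini-Hochberg), in a comparison in which 16.4% of the tested genes passed. With ABA, which named the gene, it was at 2.85, 2.88 and 2.89 in WT, against 3.27, 3.52 and 4.17 in sr34a-1, again with no overlap, as in 36.8% of tested genes.

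AT5G05550 under mock, the comparison that named it, was at 14.61, 15.89 and 16.06 cRPKM in WT, against 12.91, 13.26 and 13.43 in sr34a-1, which did not overlap, as in 34.5% of tested genes. With ABA it was at 14.54, 14.74 and 16.05 in WT, against 14.39, 14.50 and 14.07 in sr34a-1, and although these values did not overlap either, as in 36.8% of tested genes, the log2 fold change of -0.09 (SE 0.05, edgeR, adjusted p = 0.273) did not pass, where 22.1% of tested genes did. A part of 863 bases of the gene overlaps AT5G05560 on the other strand (chr5:1640098-1640960), away from the exon and its introns. Whether the reads were counted by strand is not given in the sources used here, so counts from that stretch cannot be told apart.

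RBL6 was at 5.58, 5.75 and 6.28 cRPKM in WT mock and 5.0, 5.83 and 5.97 in sr34a-1 mock, with overlap. With ABA it was at 5.24, 5.16 and 4.93 in WT, against 5.95, 5.33 and 5.42 in sr34a-1. These values did not overlap, as in 36.8% of tested genes, but the log2 fold change of 0.11 (SE 0.09, edgeR, adjusted p = 0.391) did not pass. The 95% interval of that change was -0.06 to 0.28.

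AT2G40630 was at 6.34, 6.91 and 6.25 cRPKM in WT mock and 6.43, 5.90 and 6.78 in sr34a-1 mock, with overlap and a log2 fold change of -0.03 (SE 0.08, 95% interval -0.18 to 0.12, edgeR, adjusted p = 0.834). With ABA it was at 5.62, 5.72 and 5.44 in WT, against 4.88, 5.41 and 5.99 in sr34a-1, with overlap. The last 628 bases of this gene overlap AT2G40640 on the other strand (chr2:16960964-16961591), beyond the acceptors.

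**Figure D5:**
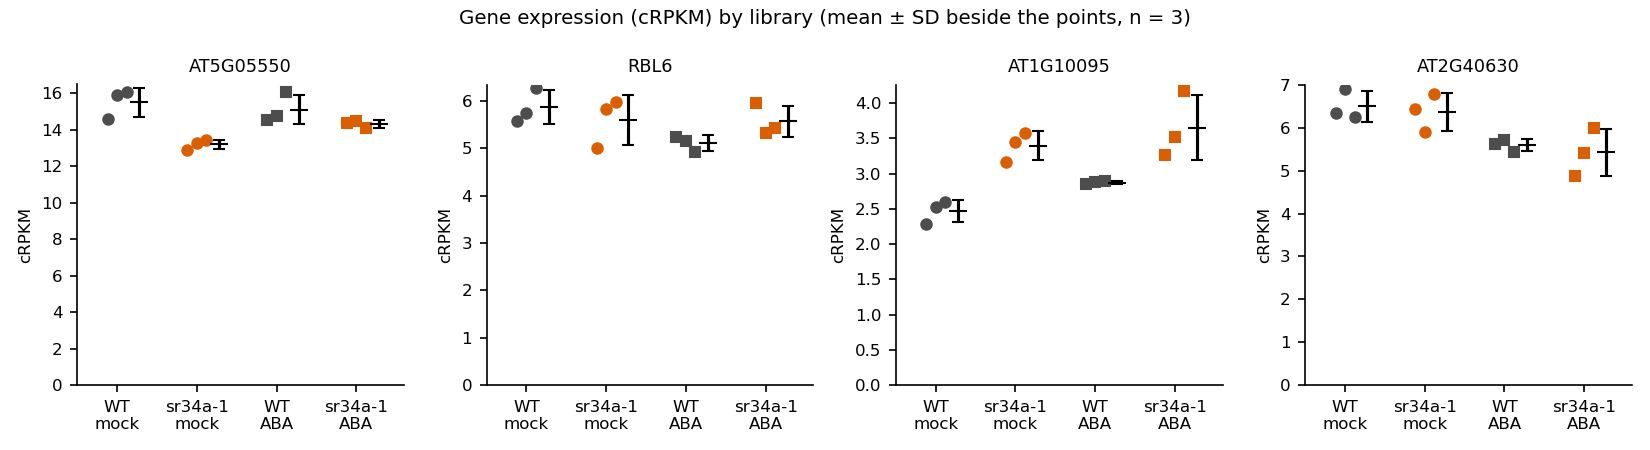
Gene expression in cRPKM by library, with the mean ± SD (n = 3) beside the points and an axis for each gene. AT1G10095 is at 2.29 to 2.89 in the 6 WT libraries and at 3.17 to 4.17 in the 6 sr34a-1 libraries. The genotypes overlap in RBL6 under mock but not with ABA, and in AT2G40630 in both treatments. Over all tested genes the genotypes do not overlap in 34.5% under mock and in 36.8% with ABA.

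Between ABA and mock, 1 call was made for the level of these genes. In WT, 0 of 4 passed, with 35.1% of all tested genes passing, and the log2 fold changes were 0.27 for AT1G10095 (edgeR, adjusted p = 0.0625), -0.15 for RBL6 (edgeR, adjusted p = 0.209), -0.16 for AT2G40630 (edgeR, adjusted p = 0.121) and 0.01 for AT5G05550 (edgeR, adjusted p = 0.902). At an unadjusted p under 0.05, 1 of the 4 (AT1G10095) would count, and 0 passed in DESeq2. In sr34a-1, where 40.1% of tested genes passed, AT5G05550 rose by 0.16 (SE 0.05, edgeR, adjusted p = 0.0311), a 1.12-fold change. That call was lost without replicate 1 or 2 of sr34a-1 ABA and without replicate 1 or 2 of sr34a-1 mock, and the adjusted p over all such removals ran from 0.0340 to 0.0843. AT2G40630 differed by -0.19 (SE 0.08, edgeR, adjusted p = 0.0661), and passed without replicate 3 of sr34a-1 ABA (adjusted p = 0.0245) or replicate 2 of sr34a-1 mock (adjusted p = 0.0404). The interaction of genotype and treatment passed for 0 of 4 genes and for 0 of 21256 genes in edgeR, where 0 of the 4 and 1374 genes had an unadjusted p under 0.05. In DESeq2, 35 genes passed for the interaction, among them 0 of the 3 of these genes that had an adjusted p, which AT1G10095 lacked.

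Genes related to the 4 by family were also tested, with the rhomboid-like list taken from annotated names and the other lists fixed gene by gene. Among 12 rhomboid-like genes other than RBL6, 11 were tested, and under mock RBL10 was lower in sr34a-1 by a log2 fold change of -0.31 (SE 0.08, edgeR, adjusted p = 0.0152) while 10 did not pass. With ABA, RBL2 was higher (0.33, edgeR, adjusted p = 0.00473) and RBL1 lower (-0.19, edgeR, adjusted p = 0.0270) in sr34a-1. Among 8 trihelix transcription factors of the SIP1 clade, the DNA-binding family of ASIL1 and ASIL2, 0 passed under mock (1 at an unadjusted p under 0.05, and 0 passing in DESeq2) and ASIL2 was higher with ABA (0.15, edgeR, adjusted p = 0.0374). Of 7 protein prenyltransferase subunits, 6 were tested and 0 passed in any comparison (edgeR, with 2 of 6 at an unadjusted p under 0.05 under mock and 1 with ABA between the genotypes, and 0 passing in DESeq2). Over all 25 tested genes of these lists, 1 passed under mock and 3 with ABA, where 16.4% and 22.1% of all tested genes did, and the list median log2 fold change was 0.03 and 0.01. Blocking on replicate number gave 3 under mock. None of 33 tested splicing events in these genes passed between the genotypes in either treatment (limma, with 1 of 33 at an unadjusted p under 0.05 in each). Since 0.529% and 0.793% of all tested events passed, a count of 0 among 33 does not set these genes apart.

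The events whose PSI followed each leading event most closely were found by the mean absolute difference over the 12 libraries, after each event was centred on its own mean. Nearest to the AT5G05550 exon were an acceptor of SR30 (4.41 points), an exon of AT5G39940 (5.25) and an acceptor of CRK (7.08), against a median of 17.9 over all tested events of other genes. The SR30 acceptor was at a mean PSI of 38.2 in WT and 7.86 in sr34a-1 under mock, and at 37.7 and 10.2 with ABA. It was also nearest to the RBL6 upstream acceptor (6.65 points, median 16.3), followed by an intron of AT1G10590 (7.54) and an acceptor of AT3G18500 (7.81). Nearest to the AT1G10095 exon were an intron of AT2G21550 (4.19), an acceptor of AT5G03406 (4.69) and an intron of AT1G63420 (5.22), with a median of 12.2. Nearest to the AT2G40630 downstream acceptor were an exon of LIG6 (3.61), an intron of XPB1 (5.05) and an exon of KAC2 (5.21), with a median of 12. The LIG6 exon was at 62.1, 85, 65.0 and 95.1 in the 4 groups in the same order. These likenesses describe the same 12 libraries that chose the genes and carry no test.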

How the data were processed

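The 12 libraries were grouped by genotype and treatment from their titles. Per the file headers, the authors deposited per gene an unnormalized read count and cRPKM (an RPKM scaled to gene length and depth), and the percent spliced in (PSI) of each splicing event with a quality field that holds its read numbers. These read numbers are corrected values and need not be whole. The layout is that of vast-tools. The build is TAIR10, per the submitters' processing notes, and the aligner and its version are not given in the sources used here. The usual splice-site letters (GT or GC, then AG) bounded 99.83% of 115163 deposited introns in RefSeq TAIR10.1. Sample columns left unmatched numbered 0.

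The members, the related gene lists and the tests were chosen with earlier results of these data known. Required were 10 reads per library and a mean PSI from 2 to 98, and the first site of each alternative-site event was left out, since sites of an event add up to 100. Of 388521 events, 259435 passed on reads and 27995 were tested with limma 3.58.1 in R 4.3.3, on log2((inclusion + 0.5)/(exclusion + 0.5)) of the reads, in a model of 4 group means whose variance followed sampling variance. Gene counts were tested with edgeR 4.0.16 (quasi-likelihood, TMM, filterByExpr, 21256 genes). Both used Benjamini-Hochberg adjustment over all features and a threshold of 0.05, and both were tested on simulated data. Alternatives were DESeq2 1.42.0, other scalings and filters, a replicate block and leaving out each library. The libraries are labelled as biological replicates, with no source culture named.

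Named events were each gene's event with the largest genotype difference, the other sites of that event and any event that differed by at least 10 points. Reading frames follow the RefSeq transcript with the longest coding sequence that holds the form, with the splice choice exchanged where RefSeq has no such form. Same-numbered libraries were checked for pairing by the correlation of their deviations from the group means. In expression under mock it was 0.117 to 0.315 in all 3 pairs of the genotypes, against -0.229 to 0.133 for libraries of unlike number. With ABA it was 0.1 to 0.148, against -0.108 to -0.035. The replicate numbers may thus pair the genotypes in expression in both treatments, and the main tests did not include pairing. In expression, 2 of 3 pairs exceeded 0.1 both between the genotypes with ABA and for ABA against mock in WT. For ABA against mock in sr34a-1, 0 of 3 did. In splicing, 0 of 3 pairs did in each comparison, and pairing there was not settled.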

Additional observations from a re-analysis of the deposited data

How the results depend on the processing

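Over the alternatives run, the direction of every leading event in the treatment that did not name its gene stayed the same, and the AT5G05550 exon stayed past the threshold in 12 of 13. Without the variance trend the adjusted p of that exon (log2 ratio -2.43) was 0.0914 and that of the intron before it (-1.22) was 0.208, other events called in the 4 genes went from 1 to 0, and events called in the whole table fell from 148 to 7 under mock and from 222 to 0 with ABA (limma). The RBL6 acceptors had 27 to 57 reads per library and the AT1G10095 exon 67 to 123, and the part of depth in the missing calls was not tested. Without 1 library the AT1G10095 exon under mock was 0.353 to 1.115. With no filter on mean PSI the table had 524 and 1338 called events, with only the 6 libraries compared 288 under mock, and leaving out 1 library gave 82 to 110 under mock and 163 to 179 with ABA.

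Most changes in direction concerned gene levels close to 0 change. AT5G05550 in WT with ABA was -0.036 on log2(cRPKM + 1) by limma and -0.038 to 0.046 with 1 library left out. RBL6 in sr34a-1 with ABA was -0.005 on that scale and -0.038 to 0.087 with 1 library left out. AT2G40630 between genotypes under mock ran from -0.081 to 0.022, and its interaction from -0.097 to 0.04. The rise of AT5G05550 with ABA in sr34a-1 was 0.11 by limma (adjusted p = 0.0981) and 0.15 to 0.19 with 1 library left out. AT2G40630 with ABA in sr34a-1 was -0.20 by limma (adjusted p = 0.0458) and -0.25 to -0.12 with 1 library left out. Leaving out 1 library gave 0 to 1 related genes called under mock and 1 to 4 with ABA.

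With the replicate number as a block, AT1G10095 with ABA in WT was 0.27 and passed (edgeR, adjusted p = 0.0396), and related genes called were 3 under mock and 5 with ABA between genotypes, and 8 in WT and 7 in sr34a-1 for ABA against mock. Over all genes, calls went from 3488 to 5381 under mock and from 0 to 74 for the interaction. The block changed no other call for the 4 genes. In splicing, same-numbered libraries correlated at no more than 0.026. Counting error in events with as few as 10 reads lowers such correlations, so whether the numbers pair there was not settled. The cause of these changes was not tested.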

Other observations

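Some events of the 4 genes outside the leading ones varied between libraries of a group. The last intron of AT2G40630 (chr2:16960748-16960824) was retained in 17.24%, 13.95% and 10.24% of reads in WT mock, 13.95%, 14.50% and 26.44% in sr34a-1 mock, 5.38%, 17.18% and 6.44% in WT ABA and 13.33%, 32.94% and 6.57% in sr34a-1 ABA. Intron 8 of AT1G10095 (chr1:3297993-3298339) was retained in 20%, 14.29% and 6.12% of reads in WT mock and 6.06%, 7.14% and 0% in sr34a-1 mock, with overlap. It was retained in 11.11%, 7.53% and 4.17% in WT ABA, the treatment that named the gene, and in 0% in all 3 libraries of sr34a-1 ABA, where 0 of 32 reads in the shallowest allows up to 9.38%.

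Among the related genes, ABA raised ASIL2 in both genotypes (log2 fold change 0.43 in WT with an adjusted p of 6.96e-06, and 0.52 in sr34a-1 with an adjusted p of 7.78e-07, edgeR), a trihelix factor known to repress seed maturation genes in seedlings. RBL4 also rose in both, by 0.51 (edgeR, adjusted p = 3.6e-05) and 0.33 (edgeR, adjusted p = 0.00139), and so did AT3G54390, by 0.54 (edgeR, adjusted p = 0.00175) and 0.52 (edgeR, adjusted p = 0.00211). Over the 25 tested genes of these lists, 5 rose and 1 fell in WT and 4 rose and 2 fell in sr34a-1, against 35.1% and 40.1% of all tested genes changed in either direction.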
